A study of Drosophila melanogaster with 6 samples.

Results

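The genes described here encode the chaperones that fold proteins in the cytosol and in mitochondria. They were measured by RNA sequencing in macrophages, the phagocytic blood cells of the fly, sorted from Drosophila melanogaster embryos. Members were taken by gene name, with earlier results of these data known: every listed gene whose name starts with Hsp, Hsc70 (without the endoplasmic reticulum chaperone Hsc70-3), DnaJ or CCT, together with stv, mrj, Droj2, Hsf, Trap1, CG7130 and Hsc20. This gave 41 of the 17494 genes listed, of which 35 had reads in at least 1 sample and 32 passed the filter on low reads. The co-chaperone Hop is listed as Stip1 and Hsp67Bb as CG4456, so neither name matched, and both are given apart from the members.

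DfosDN macrophages (3 samples) expressed UAS-DfosDN, which encodes a dominant negative version of Dfos, a bZIP transcription factor: it still binds DNA but has no activation domain. WT macrophages (3 samples) did not carry UAS-DfosDN. Both groups carried srpHemo-Gal4, which drives UAS transgenes in macrophages, and srpHemo-3xmCherry, the marker on which the cells were sorted, in a w background. Embryos were collected at 29°C and are labelled stage 11, while the methods extend the window into the start of the following stage. Each sample pooled the macrophages of many embryos. The methods give the same temperature and sorting procedure for both groups. Whether the groups were collected or sorted together is not stated. Development was slowed in the cold between collections, also in both groups. The study compared the groups to find genes that depend on Dfos while macrophages begin to enter the germband tissue.

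Chaperones bind proteins that are unfolded or not yet folded. Small heat shock proteins hold unfolding proteins without using ATP, Hsp70 proteins bind and release them in cycles driven by ATP with J domain partners and nucleotide exchange factors, Hsp90 acts on clients that are nearly folded, and the ring-shaped chaperonins enclose theirs. Stress-inducible genes such as those of the small heat shock proteins and Hsp70 are switched on by heat shock factor (Hsf) when proteins unfold, whereas cognate genes such as Hsc70-4 and the CCT genes are expressed in unstressed cells. Several small heat shock genes of the fly are in addition expressed during development without heat.

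The deposited values are on the TPM scale (transcript abundance per length, set to a common total), and the decimal point of every value of 1 or more has been lost. The place of the point was restored from the reads that each value must correspond to, and the restored TPM were scaled between samples (scaled TPM). Where the place was uncertain, with a probability under 0.9 for the chosen place, both readings are given. The 6 samples held between 8459832 and 9838688 restored reads. The libraries were made with a 3′ end kit, in which reads do not increase with the length of a gene, so TPM places long genes too low relative to short ones. Levels of different genes are therefore compared both per length and as reads. kay, the gene of Dfos, whose reads can include those of the transgene, stood at 15.8, 18.3 and 14.4 scaled TPM in DfosDN macrophages. In WT macrophages kay stood at 5.77, 12.6 and 12.1, without overlap (log2 fold change 0.68 ± 0.30 (SE), limma adjusted p = 0.31). Of the 15 macrophage markers listed, 14 were tested. After adjustment with limma, 1 was higher in DfosDN macrophages (gcm) and none was lower. At an unadjusted limma p under 0.05, 7 of the 14 were lower, against 8.33% of all genes. With limma-voom 2 were lower, against 91 of all 7826 genes. Every DfosDN sample lay below every WT sample in 6 of the 14 and above in 2, against 11.1% and 11.4% of all genes. The markers summed to 9406 to 13699 scaled TPM in DfosDN samples and 16124 to 22006 in WT samples. Most of this sum was NimC4, with 9613, 6906 and 11228 scaled TPM in DfosDN samples and 13655, 14834 and 18054 in WT samples. The 3 gut and fat body markers with reads summed to 5.55 to 11.8 scaled TPM in DfosDN samples and 1.13 to 3.27 in WT samples, with Lsp1alpha at 0 in all samples. Hml and He, which mark more mature blood cells, stood at 10.6 and 37.0 scaled TPM in WT sample 3 but at no more than 2.79 in the other 5 samples. The summed markers of crystal cells, neurons and glia, epidermis, muscle, trachea and germ line overlapped between the groups. The part of these marker differences in the chaperone results was not tested, and in bulk RNA a change in the share of a cell type and a change of RNA per cell cannot be told apart.

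Of the 10 stress-inducible chaperone genes tested, 2 rose in DfosDN macrophages, and no cognate chaperone passed the test. The classes were not tested against each other. Of all 32 chaperone genes tested, 4 rose in DfosDN macrophages at an adjusted p under 0.05, against 58 of all 7826 genes tested (0.741%). They were Hsp68 and Hsp70Bc, which encode inducible Hsp70 proteins, DnaJ-1, the main stress-inducible J domain partner of Hsp70, and CG7130, which encodes a small predicted J domain protein. No chaperone gene fell after adjustment with limma or with limma-voom, against 65 of all genes with limma (0.831%). At an unadjusted p under 0.05, 13 chaperone genes were higher, which held for 8.14% of all genes, and 4 were lower (Hsf, CCT5, CCT6 and CCT7), which held for 8.33% of all genes. In 14 of the 32 genes every DfosDN sample lay above every WT sample, which held for 11.4% of all genes, and in 4 every DfosDN sample lay below every WT sample, which held for 11.1%. The 14 include Hsp67Ba and Hsp70Bb, which reached 10 reads in 3 samples only in DfosDN macrophages, where they are high, so that passing the filter favoured a difference. The count of 4 genes that rose was not stable to the loss of a sample: without DfosDN sample 2 no chaperone gene passed, without DfosDN sample 1 there were 2 (CG7130 and Hsp67Ba), and without WT sample 3 there was 1 (Hsp70Bc). It was 7 with limma-voom, against 67 of all 7826 genes, with Hsp26, Hsp27 and Hsp83 added. With genes of uncertain decimal places set aside, which removes Hsp68 and CG7130, it was 3 (DnaJ-1, Hsp70Bc and Hsp26). The set of genes tested differs there, so the share of 0.741% does not apply, and the count over all genes is not given here.

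**Figure D1:**
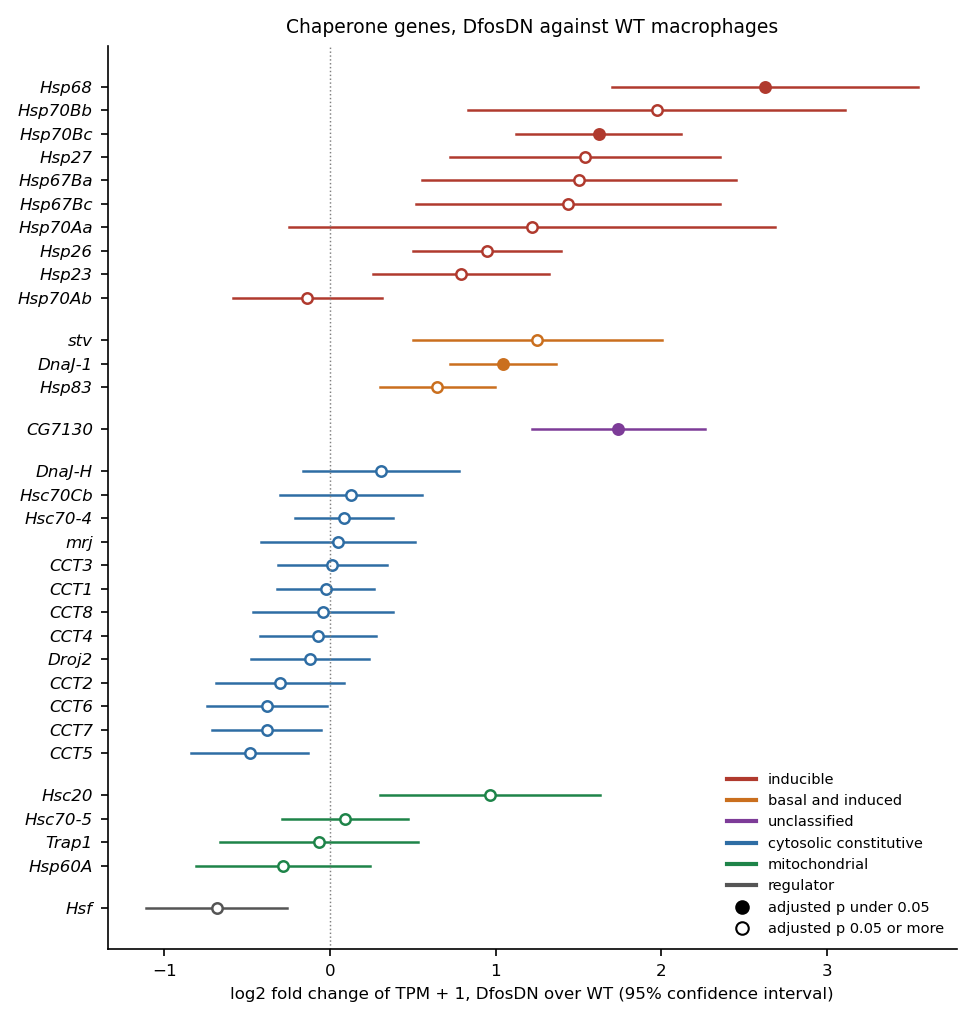
log2 fold change of each tested chaperone gene, DfosDN over WT, on the log2(TPM + 1) scale, with its 95% confidence interval from limma, in groups by class. Filled points mark the 4 genes with an adjusted p under 0.05, and 13 of the 14 genes in the upper 3 classes lie above 0, with Hsp70Ab below.

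Split by class, the inducible genes had a median log2 fold change of 1.47 over the 10 tested of 13, with 9 above 0, and the genes that are expressed without stress and further induced by it (Hsp83, DnaJ-1 and stv) had a median of 1.05, with all 3 above 0. The median was -0.04 over the 13 tested of 16 cytosolic cognate chaperones, with 5 above 0, and 0.01 over the 4 tested of 7 mitochondrial chaperones, with 2 above 0. Over all genes tested the median was 0.00. Because a gene can pass the filter through the group in which it is high, these medians describe the tested genes and not all members. The inducible class took 0.692%, 0.798% and 0.916% of the scaled TPM of all tested genes in DfosDN samples, against 0.447%, 0.553% and 0.294% in WT samples. The cytosolic cognate class took 0.186%, 0.176% and 0.195% in DfosDN samples and 0.179%, 0.201% and 0.189% in WT samples. These shares are per length, so a short gene such as Hsp23 (884 bases of exon) weighs more than Hsc70-4 (2716 bases). They do not give the order of the classes by reads, which were not summed. Without WT sample 3 the inducible median was 1.16 and without DfosDN sample 2 it was 1.21.

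**Figure D2:**
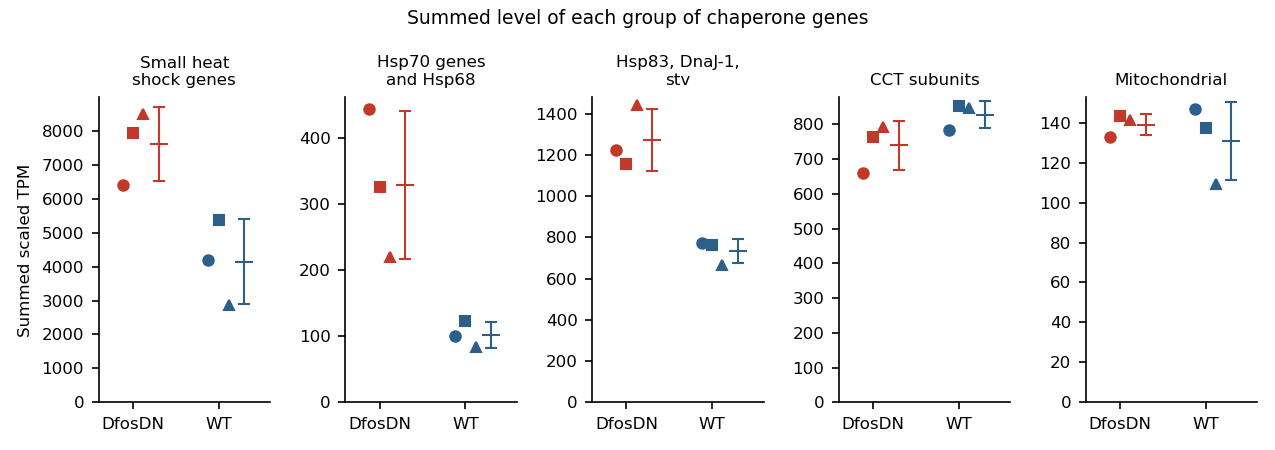
Summed scaled TPM of 5 groups of chaperone genes in each sample (points), with the mean and SD of each group beside them (n = 3 each). The small heat shock genes, the Hsp70 genes with Hsp68, and Hsp83 with DnaJ-1 and stv as restored do not overlap between DfosDN and WT, whereas the CCT and mitochondrial sums do.

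Hsp23 and Hsp26 were the most abundant stress genes per length, while the other small heat shock genes ranged down to a few reads. Hsp23, a cytosolic small heat shock protein, had the highest level per length of all members in both groups, at 3770.4, 4391 and 4589 scaled TPM in DfosDN macrophages and 2419.7, 3550.3 and 1705 in WT macrophages. Every DfosDN sample was above every WT sample, but WT sample 2 came close to DfosDN sample 1, and the difference did not pass the adjusted test (log2 fold change 0.79 ± 0.23 (SE), limma adjusted p = 0.138). By reads, Hsp23 also led in each DfosDN sample (25548 to 31285), while in WT macrophages it had 10661 to 25070 reads and the cognate chaperone Hsc70-4 had 16765 to 20993. Hsp26, a second cytosolic member of this family, stood at 2107, 2269 and 3108 scaled TPM in DfosDN macrophages, against 1430.4, 1468 and 981 in WT macrophages. These groups were separated by more than the spread within WT macrophages, with a log2 fold change of 0.95 ± 0.20 (SE) that lay just outside the threshold (limma adjusted p = 0.0549). It passed with limma-voom and with 3 further settings.

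Hsp27, a small heat shock protein of the nucleus, varied more between replicates. It stood at 455, 1170.3 and 761 scaled TPM in DfosDN macrophages and at 324, 312 and 162 in WT macrophages. The lowest DfosDN sample lay nearer to the highest WT sample than to the highest DfosDN sample, and the log2 fold change of 1.54 ± 0.36 (SE) had a limma adjusted p of 0.0805. Hsp67Bc, a small heat shock protein that works with the stv protein in clearing misfolded proteins, had 60.7, 84.7 and 34.9 scaled TPM in DfosDN macrophages, against 19.3, 34.8 and 12.2 in WT macrophages. DfosDN sample 3 and WT sample 2 were almost equal there (log2 fold change 1.44 ± 0.40 (SE), limma adjusted p = 0.119). In both Hsp27 and Hsp67Bc the place of the decimal point in WT sample 3 had a probability under 0.9 (0.887 and 0.860) when chosen without groups. A model with a separate mean for each group, which uses the groups, chose the same places. Its least probabilities were 0.998 for Hsp27 and 0.994 for Hsp67Bc. With the point 1 place to the right, WT sample 3 would have 1622 scaled TPM of Hsp27 and 122 of Hsp67Bc, the ratios of the group means would be 1.06 and 1.03 in place of 2.99 and 2.72, and neither group of DfosDN samples would stand apart.

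Hsp67Ba was scarce, with 11, 51 and 50 reads in DfosDN macrophages and 8, 3 and 1 reads in WT macrophages. This is 0.828, 4.43 and 3.74 scaled TPM in DfosDN macrophages and 0.564, 0.217 and 0.0816 in WT macrophages. The fitted log2 fold change of 1.51 ± 0.42 (SE; limma adjusted p = 0.115) understates the ratio of the means, 10.4, because 1 TPM was added to each value. Exons of the antisense gene asRNA:CR43481 cover 75.9% of Hsp67Ba, and since the sources used here do not say whether reads were counted by strand, the reads of the pair cannot be told apart. Hsp22, the mitochondrial small heat shock protein, was at 0 in all samples. All of its annotated exons lie within CG4456 (Hsp67Bb), which had 2 reads in DfosDN sample 1 and none in the other samples, so reads shared by this pair may have been left uncounted.

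Hsp23 and the other small heat shock genes lie together on chromosome arm 3L. In the BDGP6.54 annotation the 6 small heat shock members span 14.2 kb (3L:9371511-9385694), from Hsp67Bc at the left end to Hsp27 at the right end, with 4 other annotated genes between or overlapping them. Of these others, only asRNA:CR43481 (FBgn0263492) passed the filter on low reads. It had 21, 33 and 45 reads in DfosDN macrophages, against 0, 6 and 9 in WT macrophages (log2 fold change 1.04 ± 0.27 (SE), limma adjusted p = 0.099). It passed the filter only through the DfosDN samples, so a difference was built into its selection. CG4461, which encodes another protein with a small heat shock domain, had 5, 10 and 0 reads in DfosDN macrophages and 0, 15 and 0 in WT macrophages, too few to test. Per length, the 5 tested genes of the cluster made up 93.5%, 96.1% and 97.5% of the scaled TPM of the inducible class in DfosDN samples. In WT samples these genes made up 97.7%, 97.8% and 97.1%. Their summed level was 7604 ± 1086 scaled TPM in DfosDN macrophages and 4140 ± 1253 in WT macrophages (SD, n = 3 each).

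**Figure D3:**
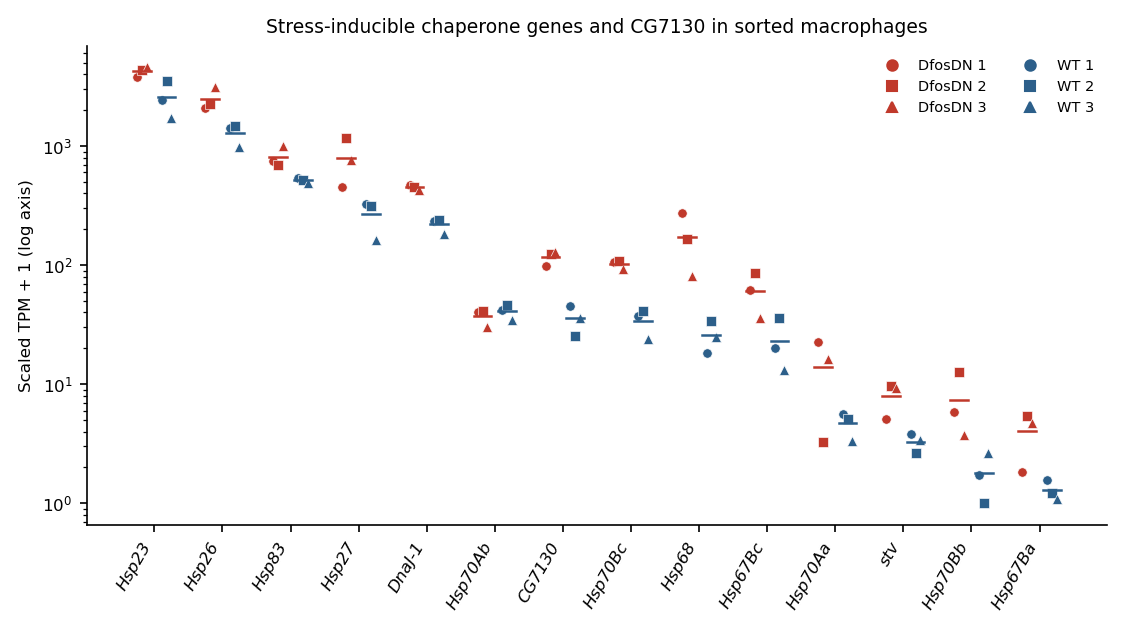
Scaled TPM + 1 (log axis) of the tested inducible genes, of Hsp83, DnaJ-1 and stv, and of CG7130 in each sample, ordered by the WT mean. Horizontal lines are group means (n = 3 each), and the groups overlap in Hsp70Ab and Hsp70Aa and in none of the other 12 genes. Every DfosDN sample lay above every WT sample in 11.4% of all genes tested.

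The inducible Hsp70 genes differed among their copies. Hsp70Bc had the clearest difference, with 105, 106 and 91.9 scaled TPM in DfosDN macrophages and 36.2, 40.2 and 22.8 in WT macrophages. The means were 101 ± 8.13 and 33.1 ± 9.16 scaled TPM (SD, n = 3 each), and Hsp70Bc rose by a log2 fold change of 1.62 ± 0.22 (SE; limma adjusted p = 0.0154). It was called in 14 of 18 alternative settings, more than any other chaperone gene, and its adjusted p ranged between 0.00125 and 0.143 over them. Hsp70Bb, a neighbouring copy, had 86, 181 and 50 reads in DfosDN macrophages, against 14, 0 and 27 in WT macrophages. Its scaled TPM were 4.78, 11.6 and 2.76 in DfosDN macrophages and 0.728, 0 and 1.63 in WT macrophages, again without overlap (log2 fold change 1.97 ± 0.50 (SE), limma adjusted p = 0.0946). Hsp70Ba, with 14, 4 and 7 reads in DfosDN macrophages and 1, 8 and 7 in WT macrophages, was not tested, and Hsp70Bbb was at 0 in all samples. The copies are nearly identical in sequence, and how reads that match several copies were counted is not given in the sources used here, so the division of reads among the Hsp70 genes is uncertain.

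Hsp70Aa and Hsp70Ab form a separate pair on 3R (3R:11954163-11960909), and their values depended on the place of the decimal point. Hsp70Ab had 39.2, 40.5 and 29.2 scaled TPM in DfosDN macrophages and 41.1, 45.3 and 33.3 in WT macrophages when the place was chosen without using the groups, with overlap and a log2 fold change of -0.14 ± 0.20 (SE; limma adjusted p = 0.787). The WT digits also fit a level 10 times lower. When the place was chosen with a mean for each group, the means were 36.3 ± 6.20 scaled TPM in DfosDN macrophages and 3.99 ± 0.608 in WT macrophages (SD, n = 3 each). The log2 fold change was then 2.89 (limma adjusted p = 0.00035). Here the groups helped to choose the values that were then compared, so this p does not test the difference. The least probability of a place was 0.999 under the first model and 0.997 under the second. Each probability holds within its own model, and the first model gives both groups the same mean. The first reading needs 800, 860 and 560 reads in WT macrophages, all multiples of 10, and the second needs 80, 86 and 56. These values therefore do not say whether Hsp70Ab was equal or about 9.10 times higher in DfosDN macrophages. Hsp70Aa had 21.5, 2.28 and 15.2 scaled TPM in DfosDN macrophages, against 4.67, 4.05 and 2.32 in WT macrophages. The low value of DfosDN sample 2 made the groups overlap (log2 fold change 1.22 ± 0.65 (SE), limma adjusted p = 0.391), and its place had a probability of 0.828. The model with a mean for each group read it as 22.8 scaled TPM, which gave a log2 fold change of 2.17 (limma adjusted p = 0.00745). The groups again helped to choose the value, so this p does not test the difference either. WT sample 3 was uncertain as well (probability 0.837), and with both samples at their other readings the ratio of the means would be 1.87 in place of 3.54.

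Hsp68, a stress-inducible relative of Hsp70, had the largest fitted difference of all chaperone genes tested. It stood at 272, 164 and 80.4 scaled TPM in DfosDN macrophages, against 17.4, 33.2 and 23.8 in WT macrophages, with means of 172 ± 96.0 and 24.8 ± 7.95 (SD, n = 3 each). Hsp68 rose by a log2 fold change of 2.63 ± 0.41 (SE; limma adjusted p = 0.0217). In the model without groups its WT values were the least certain of all members, with probabilities of 0.549, 0.706 and 0.608 for the chosen places. That model gives both groups the same mean, so a true difference between them would also lower these probabilities. With the point 1 place to the right in all 3 WT samples, they would be 174, 332 and 238 scaled TPM, and the ratio of the DfosDN mean to the WT mean would be 0.695 in place of 6.95. The model with a mean for each group chose the same places as the model without groups. Its least probability for Hsp68 was 0.990, but this model uses the groups. The rise of Hsp68 thus rests on the choice of places.

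**Figure D4:**
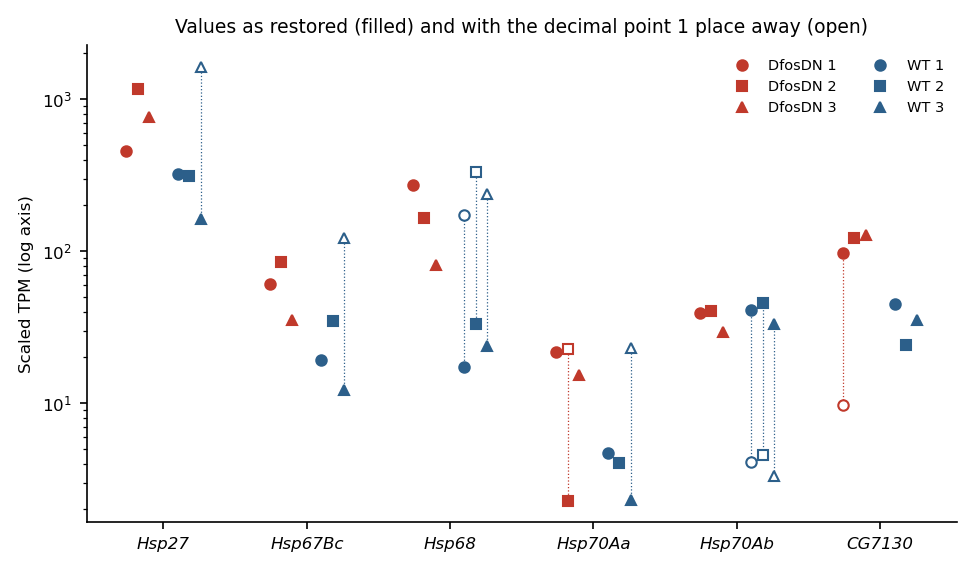
Scaled TPM (log axis) in each sample of the 6 chaperone genes with an uncertain decimal point, as restored (filled) and with the point 1 place away (open, joined by dotted lines). The open points are values with a probability under 0.9 and the other reading of Hsp70Ab in WT macrophages, and with them the WT samples of Hsp68 would lie between 174 and 332, overlapping the DfosDN samples.

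Hsp70Ba, Hsp70Bb, Hsp70Bbb and Hsp70Bc span 46.0 kb (3R:12465453-12511461), and most of the 41 other genes annotated there are transposable elements. Among the 3 other listed genes there, only lncRNA:alphagamma-element:CR32865 (FBgn0052865) had reads. This noncoding RNA comes from the alphagamma elements, repeats whose transcription is known to be induced by heat shock. It stood at 35.4, 49.1 and 61.6 scaled TPM in DfosDN macrophages, against 22.8, 16.8 and 14.3 in WT macrophages, and rose by a log2 fold change of 1.38 ± 0.25 (SE; limma adjusted p = 0.037). Its exons overlap annotated transposable elements on the same strand, and it is no chaperone gene: it was added after its values were seen. Hsromega, a long noncoding RNA that gathers in stress bodies after heat shock had 2294, 2831 and 1399 reads in DfosDN macrophages and 1742, 2232 and 1743 in WT macrophages. These overlapped (log2 fold change 0.21, limma adjusted p = 0.791).

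Of the 3 chaperones that are expressed without stress and induced further, DnaJ-1 passed the test and Hsp83 and stv did not. DnaJ-1, the J domain protein that delivers unfolded proteins to Hsp70, had 469, 456 and 423 scaled TPM in DfosDN macrophages and 234, 240.4 and 181 in WT macrophages. The means were 449 ± 23.6 and 219 ± 32.7 (SD, n = 3 each), far apart against their spread, and DnaJ-1 rose by a log2 fold change of 1.05 ± 0.14 (SE; limma adjusted p = 0.0154). All its places had a probability above 0.9. CG7130, which was put in no class, stood at 96.8, 122 and 128 scaled TPM in DfosDN macrophages and 44.6, 24.3 and 35.1 in WT macrophages. It rose by a log2 fold change of 1.74 ± 0.23 (SE; limma adjusted p = 0.0154). The value of DfosDN sample 1 was uncertain (probability 0.759 without groups). The model with a mean for each group, which uses the groups, chose the same place, with a least probability of 0.998. At the other reading, 9.68 scaled TPM, DfosDN sample 1 would lie below every WT sample. The DfosDN mean would then be 86.6 ± 66.7 in place of 116 ± 16.6 (SD, n = 3).

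Hsp83, the Hsp90 of the fly, had 749, 692 and 1008 scaled TPM in DfosDN macrophages, against 536, 523 and 484 in WT macrophages. The lowest DfosDN sample lay above the highest WT sample (log2 fold change 0.65 ± 0.15 (SE), limma adjusted p = 0.0817). At 2960 bases of exon Hsp83 is among the longer members, and by reads, 13586 to 23020 in DfosDN macrophages and 10138 to 12994 in WT macrophages, it was close to Hsp26. The scarce gene stv, which encodes a BAG domain exchange factor of Hsp70, had means of 7.01 ± 2.51 scaled TPM in DfosDN macrophages and 2.27 ± 0.587 in WT macrophages (SD, n = 3 each), also without overlap (log2 fold change 1.25 ± 0.33 (SE), limma adjusted p = 0.101). Hsp83 and stv were among the 9 chaperone genes that passed when reads were not divided by gene length, against 96 of all 7826 genes.

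Several stress genes were lowest in the same WT sample. Among the 14 tested inducible genes, induced genes and CG7130, WT sample 3 was the lowest WT sample in 10, and WT sample 2 the highest in 7. Among DfosDN samples, sample 2 was the highest in 7, and sample 1 and sample 3 were each the lowest in 6. In the 13 tested cytosolic cognate genes, WT sample 3 was the lowest WT sample in 4 and WT sample 1 in 7. No such counts were made over all genes tested. WT sample 3 was also the sample with the high levels of Hml and He, and the part of that in its low chaperone values was not tested. Without it the log2 fold changes of the 4 called genes kept their direction, and Hsp70Bc alone passed.

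The cytosolic cognate chaperones did not pass the adjusted test in either direction. Hsc70-4, the main Hsp70 protein of unstressed cells, was the most abundant of them, with 1010.0, 866 and 875 scaled TPM in DfosDN macrophages and 754, 968 and 879 in WT macrophages. The groups overlapped, and the log2 fold change was 0.09 ± 0.13 (SE; limma adjusted p = 0.797), with a 95% confidence interval of -0.21 to 0.38. None of the 13 tested genes of this class passed in either direction with limma or with limma-voom, while at an unadjusted p under 0.05 none was higher and 3 were lower (CCT5, CCT6 and CCT7), against 8.33% of all genes. Hsc70Cb, the Hsp110 that exchanges nucleotides on Hsp70, and the J domain proteins mrj, Droj2 and DnaJ-H had log2 fold changes between -0.12 and 0.31, with adjusted p between 0.508 and 0.935. Hsc70-1 and Hsc70-2 had at most 24 reads in any sample and were not tested, and DnaJ-60, whose exons lie within those of CG42568, was at 0 in all samples. Stip1 (Hop), which links Hsp70 to Hsp90 and stands outside the members by its name, had 37.6, 35.1 and 42.6 scaled TPM in DfosDN macrophages, against 27.7, 29.4 and 25.7 in WT macrophages, without overlap (log2 fold change 0.46 ± 0.17 (SE), limma adjusted p = 0.218).

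All 8 CCT subunits, which together form the ring chaperonin that folds actin and tubulin, were expressed. Their WT means ran between 58.5 scaled TPM (CCT6) and 163 (CCT3) and their DfosDN means between 44.5 (CCT6) and 166 (CCT3). The median log2 fold change was -0.19, with 7 of the 8 below 0. Their summed level was 739 ± 69.1 scaled TPM in DfosDN macrophages and 827 ± 39.3 in WT macrophages (SD, n = 3 each), with overlap. In CCT5, CCT6 and CCT7, which were singled out after their values were seen, every DfosDN sample lay below every WT sample. CCT5 had 92.6, 81.2 and 114 scaled TPM in DfosDN macrophages and 138, 134 and 129 in WT macrophages (log2 fold change -0.49 ± 0.16 (SE), limma adjusted p = 0.164). CCT6 and CCT7 had log2 fold changes of -0.38 each, with limma adjusted p of 0.279 and 0.236. No subunit passed the adjusted test, and the 95% confidence intervals of the 8 lie between -0.84 and 0.38.

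**Figure D5:**
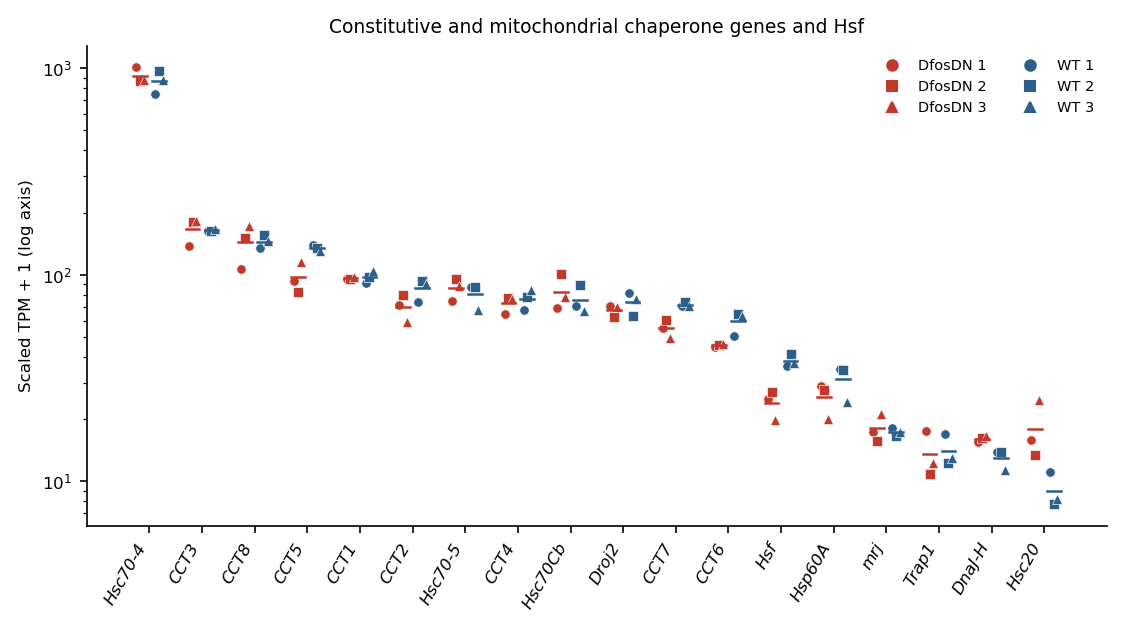
Scaled TPM + 1 (log axis) of the tested cytosolic cognate chaperones, the mitochondrial chaperones and Hsf in each sample, ordered by the WT mean, with group means as lines (n = 3 each). The groups overlap in 12 of the 18 genes. DfosDN samples lie below WT samples in CCT5, CCT6, CCT7 and Hsf, against 11.1% of all genes tested. They lie above WT samples in DnaJ-H and Hsc20, against 11.4% of all genes tested.

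Mitochondrial chaperones were expressed at moderate levels and did not move together. Hsc70-5, the Hsp70 of the mitochondrial matrix, was the most abundant, with 73.3, 94.2 and 87.2 scaled TPM in DfosDN macrophages, against 86.6, 85.8 and 66.8 in WT macrophages. These overlapped (log2 fold change 0.09 ± 0.17 (SE), limma adjusted p = 0.835). The chaperonin Hsp60A and Trap1, the mitochondrial Hsp90, had log2 fold changes of -0.28 and -0.07 with adjusted p of 0.601 and 0.933. Hsc20, a J domain protein that serves the assembly of iron-sulfur clusters, was the exception, with 106, 76 and 169 reads in DfosDN macrophages and 77, 50 and 47 in WT macrophages. Its scaled TPM of 14.9, 12.4 and 23.6 in DfosDN macrophages lay above the 10.1, 6.75 and 7.17 of WT macrophages, but the difference did not pass (log2 fold change 0.96 ± 0.29 (SE), limma adjusted p = 0.148). Hsp60B, Hsp60C and Hsp60D were at 0 in all samples. None of the 4 tested genes passed with limma or limma-voom, and at an unadjusted p under 0.05 Hsc20 alone was higher.

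Hsf, the transcription factor that binds heat shock genes under stress, ran opposite to the inducible genes. It had 24.1, 26.2 and 18.9 scaled TPM in DfosDN macrophages, against 35.2, 40.5 and 36.4 in WT macrophages. All DfosDN samples were below all WT samples, with a log2 fold change of -0.68 ± 0.19 (SE; 95% confidence interval -1.11 to -0.26), but the difference did not pass the adjusted test (limma adjusted p = 0.112) and it passed under none of the alternatives. The RNA level of Hsf is not its activity, which depends on the release and trimerization of the protein.

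A list of 54 other folding genes outside the members was compared, of which 40 were tested. None rose with limma or limma-voom. At an unadjusted p under 0.05, 5 were higher, against 8.14% of all genes, and 3 were lower, against 8.33%. After adjustment 1 fell, against 0.831% of all genes. It was the J domain gene CG2911, which had 304, 220 and 348 reads in DfosDN macrophages and 603, 628 and 600 in WT macrophages (log2 fold change -0.99, limma adjusted p = 0.031). Of the exon bases of CG2911, 26.5% are shared with Spec2 on the same strand, and its least certain decimal place had a probability of 0.923. The median log2 fold change was 0.02 over the 40 genes. By group it was 0.12 over 6 prefoldin subunits, which hand actin and tubulin to CCT, 0.10 over 15 partners of Hsp90 and Hsp70, and -0.13 over 16 other J domain genes. The mitochondrial co-chaperonin CG11267 (Hsp10) had a log2 fold change of 0.13 (limma adjusted p = 0.72). Among the partners, DfosDN samples lay above WT samples in HIP-R, CG7394, the mitochondrial exchange factor Roe1 and Cdc37, which brings kinases to Hsp90. DfosDN samples lay below WT samples in jdp and blp. These 6 genes had limma adjusted p between 0.087 and 0.23 and were named after their values were seen. Over all genes tested, DfosDN samples lay above WT samples in 11.4% and below them in 11.1%.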

How the data were processed

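Macrophages were sorted in 3 samples per genotype, and replicate numbers come from the sample titles. The study calls them biological replicates. Its methods name a 3′ end kit, the labels standard Illumina protocols. According to the study's methods and the submitters' processing notes, the authors aligned reads to BDGP6 with STAR 2.5.1b, counted them with HTSeq 0.5.4p3 and normalized them with TMM from edgeR before voom and limma. The values the authors deposited are neither counts nor voom values but other values on the TPM scale, in which the decimal point is missing wherever a value reaches 1.

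Deposited values are proportional, within a sample, to reads over exon length. Exon lengths came from Ensembl (BDGP6.54). Between 97.9% and 98.4% of the intact values per sample gave whole reads within 0.0001. Places that give whole reads were listed for each other value, and the likeliest was chosen by a negative binomial model of the 6 samples that did not use the groups. Of 12064 genes restored, 141 took a length from the values, within 25% of the annotated one. Set apart were 5335 genes listed at 0 throughout, 89 without a length and 6 for which no place gave whole reads. Restored TPM summed to between 985509 and 992177 per sample. In 355 genes a value had a probability under 0.9, and 99 genes changed when the model had a mean for each group.

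A gene was tested if 3 or more samples had 10 or more reads, scaled to the median library, and its reads summed to 15 or more. TMM factors trimmed 30% of log ratios and 5% of intensities, and log2(TPM + 1) was compared with limma 3.58.1 with an intensity trend in R 4.3.3, with Benjamini-Hochberg adjustment over all 7826 genes. The design had allowed for a count test, which was not used because the restored reads are estimates. Tested on simulated data (7907 genes), restored reads called 76 of 100 genes changed 3-fold and 15 of 100 changed 10-fold, with 3 unchanged genes among 94 calls, against 98 and 100 from the true simulated reads. Differences near 10-fold are therefore mostly lost. Python 3.11.15, NumPy 2.4.6, SciPy 1.17.1 and pandas 2.3.3 were used.

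Members given sample by sample were those passing the test, the inducible class and the most abundant of each class. Members, classes and lists were chosen with earlier results of these data known. Alternatives were other scalings, filters, pseudocounts of 0.1 and 5, limma-voom, reads not divided by length, 4 other restorations, leaving out each sample and a replicate block. No genome sequence was used, and no sequences are shown.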

Additional observations from a re-analysis of the deposited data

How the results depend on the processing

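Of 553 comparisons of a chaperone gene's log2 fold change with an alternative, 496 kept their direction and their side of the threshold, 20 fell short of it, 13 passed newly and 24 reversed. The 4 chaperone genes higher in DfosDN macrophages were 4 as well with median-of-ratios factors, with no scaling factor and with pseudocounts of 0.1 and 5 TPM, and the same genes. The count was 0 (2 higher and 6 lower among all genes) when all genes with reads were tested without the filter. It was 7 with limma-voom (67 and 91 among all genes) and 9 without division by length (96 and 136). With a mean for each group in the restoration, where the groups helped to choose the values, it was 7 (93 and 119). With the smallest power for every value it was 1 (Hsp70Ab, with 6 and 12). It was 3 with genes of uncertain places set aside (DnaJ-1, Hsp26 and Hsp70Bc, of which 2 are among the 4). Among genes whose values all stood at the smallest power it was 2. These last 2 settings test other sets of genes, and their counts over all genes are not given here. Leaving out each sample gave 0 to 4 chaperone genes, with 4 to 46 higher and 15 to 46 lower among all genes. No setting called a chaperone gene lower.

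Restoration with a mean for each group turned Hsp70Ab to 2.89. The smallest power for every value turned Hsf to 0.32, Hsp83 to -0.46, CCT5 to 0.59, Hsp70Ab to 2.89, CCT3 to -1.07, Hsc70Cb to -0.93, Trap1 to 0.79, CCT4 to 2.03, CCT7 to 0.67 and Droj2 to 0.93. This setting takes every value at the fewest reads it allows. Leaving out 1 sample at a time gave log2 fold changes of -0.16 to 0.0087 for CCT4, -0.19 to 0.16 for CCT8, -0.0604 to 0.14 for CCT3, -0.0311 to 0.25 for Hsc70Cb, -0.27 to 0.082 for Trap1, -0.26 to 0.009 for Hsp70Ab, -0.0669 to 0.14 for mrj, -0.0117 to 0.17 for Hsc70-4, -0.0294 to 0.19 for Hsc70-5 and -0.0732 to 0.0212 for CCT1.

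Samples with the same replicate number did not deviate together (correlations of -0.037, 0.015 and 0.042 across genes), so no pairing by number was seen. Correlations over all genes cannot exclude a shared collection or sort that moved only some genes. The replicate block called 5 chaperone genes higher, with 33 higher and 35 lower among all genes. Counting error limits genes under about 10 reads, and the lost decimal points limit the rest: a difference near 10-fold and a shift of the point look alike.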
